A study of Mus musculus with 29 samples.

Results

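The genes described here are the immunoglobulin chain genes and the J chain gene in mouse liver after ligation of the bile duct. Members were chosen by symbol: every gene with a row of its own whose symbol begins with Ighv, Igkv, Iglv, Ighm, Ighg, Igha, Ighd, Ighe, Igh-, Igkc, Igkj, Iglc or Iglj, without Ighmbp2 (a helicase gene whose symbol only resembles them), plus Jchain, once called Igj. This gave 22 members of 22180 genes. They are 2 heavy chain constant region genes (Ighm and Ighg3), 4 heavy chain variable segments, 13 kappa variable segments, 1 kappa joining segment (Igkj1), 1 lambda variable segment (Iglv1) and Jchain. In the RefSeq gene annotation, chromosome 12 holds 5 of them and chromosome 6 holds 14, with Iglv1 on chromosome 16 and Jchain on chromosome 5, and Igh-VS107 had no entry. The kappa constant gene and the constant genes of IgA, of the other IgG classes and of lambda chains were not analysed here.

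Liver RNA of male C57BL/6N mice aged 8 to 10 weeks, kept on a standard diet, was measured on 29 arrays. In the BDL groups the common bile duct outside the liver had been tied off, and livers were taken at day 1, 3, 7 or 21, with 5 arrays at each day. Sham groups underwent surgery without ligation and comprised 3 livers of day 1, 2 of day 3 and 4 of day 7. No sham group of day 21 was analysed here, so BDL livers of day 21 were set against sham livers of day 7 and against BDL livers of day 7, and in the first of these time and ligation cannot be told apart. The sample titles mark every animal as wt, read here as wild type.

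An antibody is built of heavy and light chains. B cells join a variable and a joining segment, and in the heavy chain a diversity segment, to a constant region, and plasma cells, the end stage of the B cell lineage, then transcribe the joined gene at very high rates. Ighm encodes the constant region of IgM and Ighg3 that of IgG3, Igk genes encode kappa light chains, which most mouse antibodies carry, and the J chain links IgM and IgA into polymers. In liver, the polymeric immunoglobulin receptor on hepatocytes and bile duct cells in rodents carries such polymers into bile, which ligation of the duct blocks.

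Jchain was the only member with an entry in the promoter table, and the 250 bases before its start are shown because Jchain carried the lowest adjusted p among the members for the late rise described below. The stretch is chr5:88527898-88528147 of RefSeq GRCm38.p6, minus strand, with matches to the E-box letters CANNTG in capitals.
Jchain: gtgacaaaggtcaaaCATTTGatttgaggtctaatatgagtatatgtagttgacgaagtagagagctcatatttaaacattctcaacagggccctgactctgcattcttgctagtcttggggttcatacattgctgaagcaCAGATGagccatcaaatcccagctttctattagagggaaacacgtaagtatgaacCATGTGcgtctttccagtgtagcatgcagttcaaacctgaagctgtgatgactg
The 3 E-box matches begin at -235, -109 and -54 from the start. Such letters occur in 66.2% of 32851 windows of the table, so their presence here is common. The octamer ATGCAAAT, known from promoters of immunoglobulin variable segments, was searched on both strands and had 0 matches in this window, against 1.6% of all windows. Neither GAGGAA, a core of the PU.1 site, nor TATAAA matched, and these letters were found in 23.3% and 12.4% of all windows. A match or its absence here describes letters only.

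Values are log2 expression levels, and a level is compared only with levels of the same gene, since probes differ in brightness. A level of 5 was taken as the limit under which a value was not told apart from background. Of the 22 members, 11 exceeded 5 in at least 3 arrays (50%), against 66.3% of all genes. Ighm, Ighv1-53, Igkv5-43 and Igkv15-103 exceeded it in all 29 arrays and Igh-VS107 in 28, while Igkv4-91 did so in 14, Igkj1 and Ighg3 in 7, Igkv4-72 and Jchain in 5 and Igkv9-120 in 4. The other 11 members did not pass. Igkv1-133 exceeded 5 in 1 array, and 10 members never did: Ighv1-47, Ighv1-54, Igkv4-59, Igkv4-70, Igkv6-14, Igkv6-23, Igkv8-19, Igkv8-30, Igkv9-124 and Iglv1. Jchain, Igkv4-72, Igkv9-120 and Igkj1 passed only with their BDL arrays of day 21. Members that passed through their high group alone were bound to differ, so counts are also given over all 22 without that filter.

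Median levels of the arrays lay between 4.90 and 5.13. At day 1, 4 arrays (replicates 2 and 3 of BDL and replicates 1 and 3 of sham) stood apart with a narrower spread of levels and higher small nucleolar RNA, whose mean over 71 genes was 9.02 to 9.49 there and 7.72 to 8.53 in the other 25. The counts of members called at day 1 and between day 21 and day 1 were the same without these 4 arrays. Alb, the albumin gene that marks hepatocytes, averaged 14.03 to 14.17 in the 7 groups. In bulk liver RNA, more cells of a type and more RNA per cell cannot be told apart.

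The main result lay between day 7 and day 21 of ligation. In BDL livers of day 21 against BDL livers of day 7, 8 of the 11 tested members rose and none fell (limma, Benjamini-Hochberg adjusted p under 0.05 over all 14699 genes tested), in a comparison in which 0.401% of tested genes were called higher. Without the filter, 10 of 22 members were called higher, against a background of 0.234%, and 9 of 22 had all 5 BDL arrays of day 21 above all 5 of day 7, against 1.24% of genes. The median log2 difference was 1.37 over the tested members and 0.66 over all 22, beside 0.001 over all genes tested.

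Ighm, the IgM heavy chain constant gene, had levels of 9.38, 10.08, 9.98, 9.93 and 9.62 in BDL livers at day 21, against 8.39, 8.89, 8.97, 8.87 and 8.71 in BDL livers at day 7. Every day 21 array lay above every day 7 array. The difference was 1.04 ± 0.17 on the log2 scale (SE, n = 5 each), a 2.05-fold step, with adjusted p = 0.000752 by limma. In sham livers at day 7 Ighm had 9.56, 9.68, 8.77 and 9.02, and the 2 highest of these overlap the BDL arrays of day 21. Against them the difference was 0.55 ± 0.18 with adjusted p = 0.0216 by limma, and this call was lost in 5 of the 9 fits that left out a single array.

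Ighg3, the IgG3 constant gene, was not called in either comparison of day 21. Its levels were 4.26, 4.44, 4.12, 6.02 and 3.95 in BDL livers at day 21, against 5.13, 4.88, 4.19, 4.63 and 4.34 in BDL livers at day 7 and 4.14, 4.38, 5.35 and 3.37 in sham livers at day 7. The groups overlap, and a single BDL array (replicate 4) is the only one above 5 at day 21. The difference from BDL day 7 was -0.08 ± 0.34 (adjusted p = 0.993 by limma), and that from sham day 7 was 0.25 ± 0.36 (adjusted p = 0.677). Whether Ighg3 and Ighm differ in their change was not tested.

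**Figure D1:**
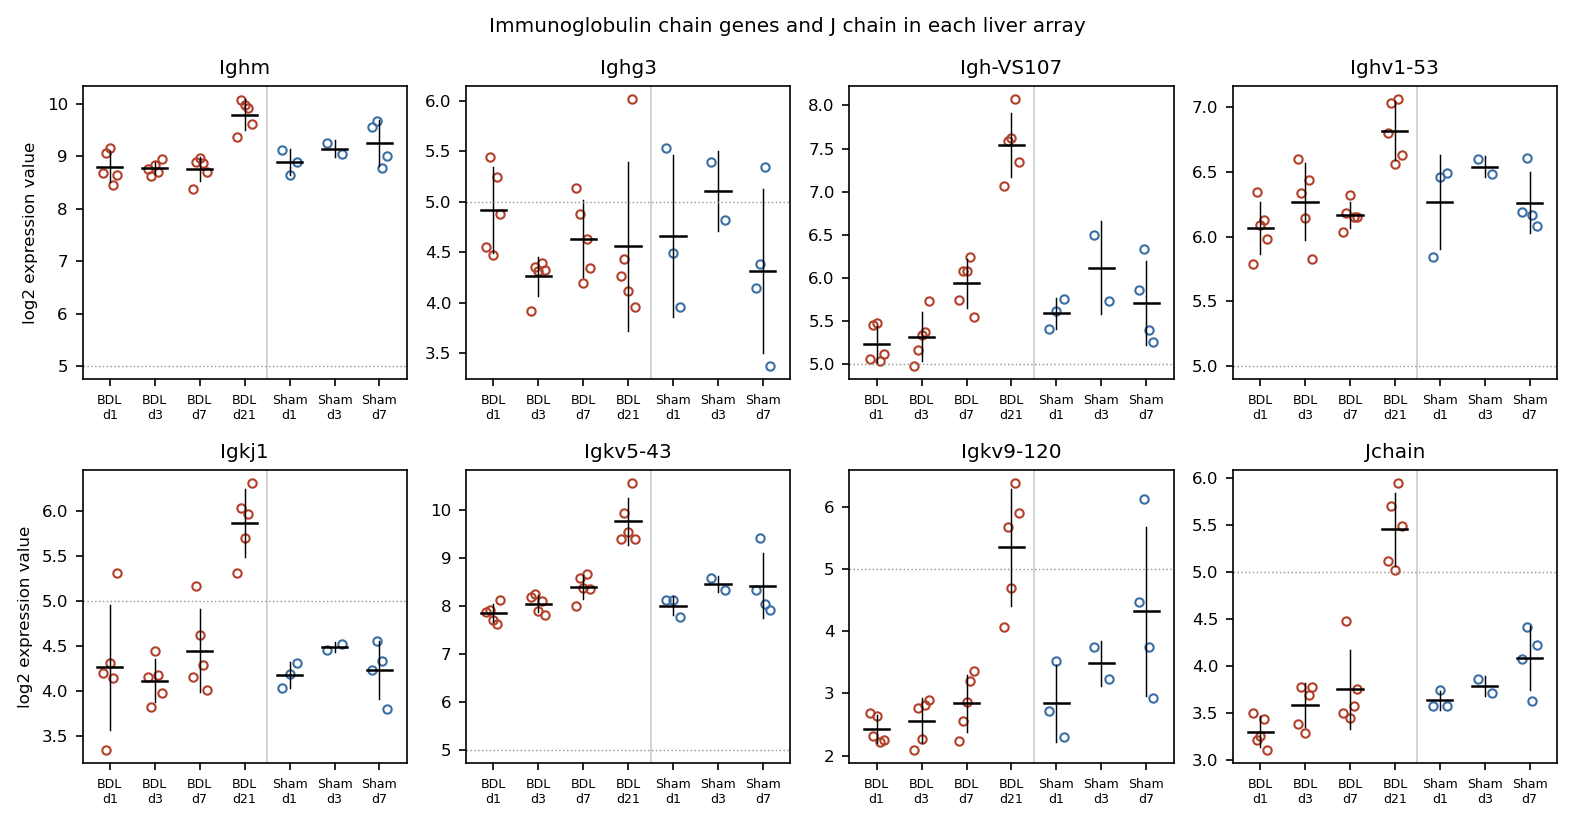
Log2 expression values of 8 members in each array (circles), with the group mean (bar) and SD (vertical line), for BDL days 1, 3, 7 and 21 in red, then sham days 1, 3 and 7 in blue; the dotted line marks the level of 5. For 7 of the 8 members shown, all BDL arrays of day 21 lie above all BDL arrays of day 7, and Ighg3 is the exception. Over all 22 members this held for 9, against 1.24% of genes. Some of the members shown passed the filter only with their BDL arrays of day 21.

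Among the heavy chain variable segments, Igh-VS107 and Ighv1-53 rose. Igh-VS107, named in the array annotation for the S107 segment family, had 7.06, 7.59, 7.62, 8.07 and 7.34 in BDL livers at day 21, against 5.74, 6.08, 6.08, 6.25 and 5.55 in BDL livers at day 7. In sham livers at day 7 it had 5.86, 6.34, 5.40 and 5.26. All 5 arrays of day 21 lay above every other array of the series. The log2 difference was 1.60 ± 0.20 from BDL day 7 (3.03-fold, adjusted p = 2.56e-05 by limma) and 1.83 ± 0.21 from sham day 7 (3.54-fold, adjusted p = 1.39e-07).

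Ighv1-53 moved less. It had 6.80, 7.04, 6.56, 7.06 and 6.63 in BDL livers at day 21, against 6.03, 6.19, 6.32, 6.15 and 6.15 in BDL livers at day 7. The groups did not overlap, and the difference was 0.65 ± 0.14 (1.57-fold, adjusted p = 0.0216 by limma). The call was lost without BDL day 21 replicate 2 or 4 or without BDL day 7 replicate 1, with adjusted p of 0.0693, 0.0809 and 0.0746. Against sham day 7 it was 0.56 ± 0.15 higher (adjusted p = 0.0072). Ighv1-47 and Ighv1-54 had group means between 2.12 and 2.75 throughout, under the level at which a change could be measured.

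Of the kappa genes, Igkv5-43 was the brightest and was measured above 5 in every array. It had 9.40, 9.93, 9.54, 10.55 and 9.39 in BDL livers at day 21, against 8.01, 8.57, 8.37, 8.67 and 8.35 in BDL livers at day 7 and 8.33, 9.42, 8.03 and 7.91 in sham livers at day 7. Only sham replicate 2 reached the day 21 range. The rise was 1.37 ± 0.22 from BDL day 7 (2.58-fold, adjusted p = 0.000697 by limma) and 1.34 ± 0.23 from sham day 7 (2.53-fold, adjusted p = 5.61e-05). Igkv5-43 has 3 rows, and with their mean in place of the brightest row the rise from BDL day 7 was 0.76 and no longer called (adjusted p = 0.45).

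Igkv9-120 and Igkv4-72, both kappa variable segments, were called higher in BDL livers of day 21 than of day 7. Igkv9-120 had 4.07, 5.68, 4.70, 6.37 and 5.90 at day 21, against 2.23, 2.56, 2.86, 3.20 and 3.36 at day 7, a difference of 2.50 ± 0.41 (adjusted p = 0.00122 by limma). Igkv4-72 had 5.28, 5.74, 5.28, 6.91 and 4.53 at day 21, against 3.44, 3.09, 3.14, 3.39 and 3.35 at day 7, a difference of 2.26 ± 0.30 (adjusted p = 9e-05). Neither pair of groups overlapped. Both segments passed the filter only with their BDL arrays of day 21, and without the filter the adjusted p by limma were 0.0012 and 8.59e-05. The day 7 values lie under 5, so the sizes depend on the background, and measured from the level of 5 the least steps were 0.34 for Igkv9-120 and 0.55 for Igkv4-72.

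Sham livers were spread widely for these 2 segments. Igkv9-120 had 4.47, 6.13, 3.74 and 2.92 in sham livers at day 7, and the BDL livers of day 21 were 1.03 ± 0.44 higher, which did not pass (adjusted p = 0.088 by limma). Igkv4-72 had 3.93, 5.06, 3.49 and 3.15 in the same sham livers, and BDL livers of day 21 were 1.64 ± 0.32 higher (adjusted p = 0.000263). In both, sham replicate 2 was the highest of its group and lay within the range of the BDL livers at day 21.

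Igkj1, a kappa joining segment, had 5.31, 6.04, 5.70, 5.97 and 6.31 in BDL livers at day 21, against 4.16, 5.17, 4.63, 4.29 and 4.01 in BDL livers at day 7 and 4.24, 4.56, 4.34 and 3.80 in sham livers at day 7. No array of day 7, BDL or sham, reached the lowest of day 21. The log2 difference was 1.41 ± 0.25 from BDL day 7 (adjusted p = 0.00235 by limma) and 1.63 ± 0.26 from sham day 7 (adjusted p = 2.09e-05). The least step was 0.87 above the level of 5. Igkj1 passed the filter only with its BDL arrays of day 21, and without the filter the adjusted p by limma were 0.00256 and 2.36e-05. Igkv15-103 and Igkv4-91, the other tested kappa segments, were 0.47 ± 0.22 and 0.59 ± 0.33 higher than in BDL day 7 without passing the test (adjusted p = 0.57 and 0.715).

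The remaining kappa and lambda members lay mostly under 5. Igkv4-59 averaged 3.60 ± 0.80 in BDL livers at day 21 and 2.41 ± 0.35 in BDL livers at day 7 (SD, n = 5 each), and Igkv4-70 averaged 3.75 ± 0.65 and 2.64 ± 0.13 in the same groups. Both were called higher without the filter (adjusted p = 0.00934 and 0.00392 by limma), at levels not told apart from background. Igkv1-133 reached 7.33 in a single BDL liver of day 21 (replicate 2), where the other 4 had 2.98 to 4.23. Iglv1, the only lambda member, averaged 3.95 ± 0.28 in BDL livers at day 21 and 3.70 ± 0.26 in BDL livers at day 7, a difference of 0.26 ± 0.19 that did not pass without the filter.

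Jchain, whose product joins IgM and IgA units, had 5.12, 5.71, 5.02, 5.95 and 5.49 in BDL livers at day 21, against 3.49, 4.47, 3.45, 3.58 and 3.75 in BDL livers at day 7 and 4.08, 4.41, 3.62 and 4.22 in sham livers at day 7. These 5 livers were the only ones of 29 in which Jchain exceeded 5. The difference was 1.71 ± 0.18 from BDL day 7 (3.27-fold, adjusted p = 1.53e-06 by limma) and 1.37 ± 0.19 from sham day 7 (2.59-fold, adjusted p = 2.61e-06). Counted from the level of 5, the least step was 0.46. Both calls held in each fit that left out a single array, with the filter kept as set on all 29 arrays. Jchain passed that filter only through BDL day 21, and without the filter the adjusted p by limma were 1.5e-06 and 3.06e-06.

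**Figure D2:**
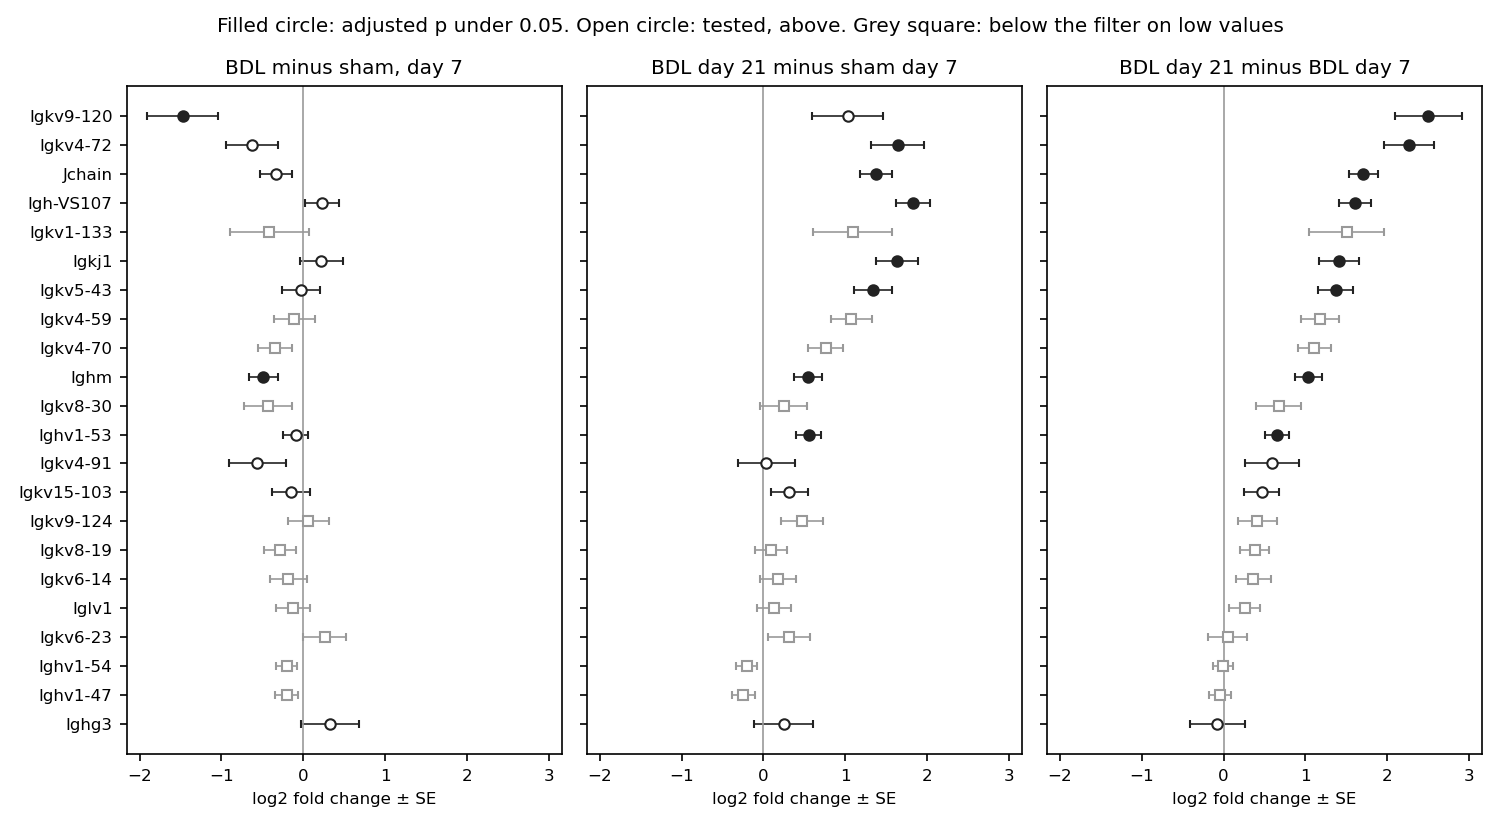
Log2 fold change with SE of the 22 members for BDL minus sham at day 7, BDL day 21 minus sham day 7 and BDL day 21 minus BDL day 7, ordered by the last. The 8 filled circles in the right panel are the called members, from Igkv9-120 at 2.50 to Ighv1-53 at 0.65, and both filled circles in the left panel lie below 0.

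Against sham livers of day 7, 7 of the 11 tested members were higher in BDL livers of day 21 and none was lower, where 17.3% of tested genes were called higher and 7.9% lower. Without the filter 9 of 22 were higher, against 10.9% of genes. Of the 8 called between day 21 and day 7 of ligation, only Igkv9-120 fell short here. Without sham replicate 2, 8 members were called higher.

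Earlier after ligation no member was called higher. At day 1, 0 of 11 tested members passed in either direction, and 0 had an unadjusted p under 0.05 by limma, while 8.52% of tested genes were called higher and 4.8% lower. Against all 9 sham arrays in place of the 3 of day 1, 3 members were called lower at day 1, where 10.7% of tested genes were, among them Jchain (-0.57, adjusted p = 0.0121 by limma).

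At day 3, 1 tested member was called lower, where 3.69% of tested genes were. Igh-VS107 had 4.98, 5.16, 5.34, 5.38 and 5.73 in BDL livers, against 6.50 and 5.73 in sham livers. The BDL values lie below both sham values, the highest of them by a small margin, and the difference was -0.80 ± 0.26 (adjusted p = 0.0475 by limma). The call was lost in 5 of the 7 fits that left out a single array, and without sham replicate 1 the difference was -0.42. In 8 of 22 members all BDL arrays lay below both sham arrays, against 10.3% of genes, and the median difference over all 22 was -0.25, with -0.004 over all genes.

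At day 7, 2 tested members were called lower in BDL livers, where 4.97% of tested genes were. Igkv9-120 was -1.47 ± 0.44 from sham (adjusted p = 0.0163 by limma) and Ighm was -0.49 ± 0.18 from sham (adjusted p = 0.0484), from the array values given above. BDL and sham arrays overlapped for both. Without sham replicate 2 the differences were -0.87 for Igkv9-120 and -0.35 for Ighm, and neither was called (adjusted p = 0.135 and 0.216). The call of Ighm was lost in 6 of the 9 fits that left out a single array, and that of Igkv9-120 in 1 of the 9. Both calls were also lost against all 9 sham arrays and when only the groups compared were fitted, and that of Ighm also without the filter, with cyclic loess scaling and with the mean of its rows.

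Between the earlier days of ligation no member was called by its brightest row, while a further row of Ighm was called between days 3 and 7, as given below. From day 1 to day 3 and from day 3 to day 7, 0 of 11 tested members were called, and 0 and 1 had an unadjusted p under 0.05 by limma, where 12% and 4.6% of tested genes were called higher. Igh-VS107 came closest, 0.62 ± 0.20 higher at day 7 than at day 3 (adjusted p = 0.0582). From end to end, 9 of 11 tested members were higher in BDL livers of day 21 than of day 1 and none was lower, where 21.8% of tested genes were called higher. Without the filter 12 of 22 members were called higher, against 13.7% of genes. Igkv9-120 differed by 2.92 ± 0.41, Igh-VS107 by 2.31 ± 0.20, Jchain by 2.16 ± 0.18 and Igkv5-43 by 1.91 ± 0.22, with adjusted p by limma of 3.66e-06, 1.03e-09, 7.35e-10 and 1.21e-07.

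In sham livers no member was called between day 1 and day 7 (limma; 3 had an unadjusted p under 0.05, all lower at day 1), where 2.96% of tested genes were called lower. Igkv9-120 was the lowest of these at -1.48 ± 0.50 (adjusted p = 0.0768). The ligation effect of day 7 less that of day 1 was called for 0 of 11 members, 0 of them with an unadjusted p under 0.05 by limma, where 3.48% of tested genes were called higher.

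**Figure D3:**
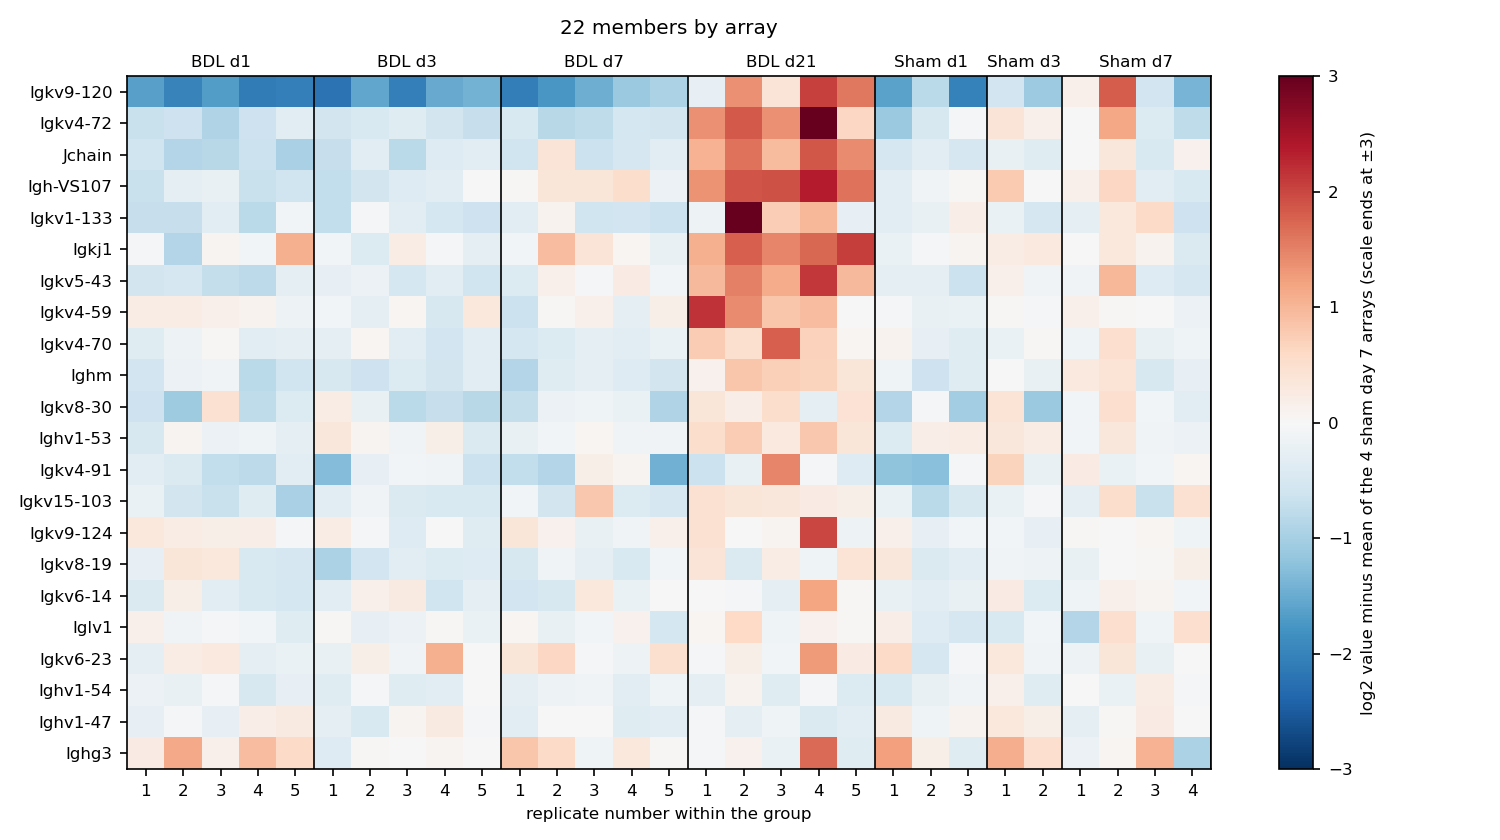
Each member (rows, ordered by the change between BDL day 21 and BDL day 7) in each array (columns, numbered by replicate within BDL days 1, 3, 7 and 21, then sham days 1, 3 and 7), as the log2 value minus the mean of the 4 sham arrays of day 7. The upper rows are raised in most BDL arrays of day 21, and among the sham arrays of day 7 replicate 2 is highest for 13 of 22 members.

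The spread between mice differed from group to group. In BDL livers the median SD over the 22 members was 0.22 at day 1, 0.26 at day 3, 0.30 at day 7 and 0.44 at day 21, beside 0.22, 0.18, 0.17 and 0.16 over all genes. In sham livers it was 0.26, 0.17 and 0.34 at days 1, 3 and 7, beside 0.23, 0.15 and 0.19. At day 1 of ligation the members thus spread about as widely as other genes did, and these differences in spread were not tested. BDL replicate 4 of day 21 was the highest of its 5 for 10 of the 22 members, against 24.3% of genes. Sham replicate 2 of day 7 was the highest of its 4 for 13 of the 22, against 21.6% of genes. That sham array was also the highest for 11 of 12 T cell markers, 13 of 19 B cell markers and 8 of 10 pan-leukocyte genes, and the BDL array for 8 of 12 T cell markers, 6 of 19 B cell markers and 9 of 10 pan-leukocyte genes. The part of these in the members' levels was not tested.

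Ighm has 7 rows on the array with its symbol alone, 5 of which passed the filter, and 3 of these were called between BDL day 21 and BDL day 7. Rows 1, 3 and 4 were 1.04, 1.39 and 1.57 higher in BDL livers of day 21 than of day 7 when each row was tested alone (adjusted p = 0.00135, 0.00455 and 0.000268 by limma), while rows 2 and 5 differed by 0.16 and 0.01 without passing. Whether the rows differ from each other was not tested. Row 2 was 1.08 ± 0.31 lower in BDL than in sham livers at day 1 and 1.37 ± 0.35 lower at day 3 (adjusted p = 0.027 and 0.0193). It rose earlier, by 0.97 ± 0.27 from day 3 to day 7 of ligation with no overlap of arrays (adjusted p = 0.0456 by limma). In that comparison 2.22% of all rows were called higher. In BDL livers of day 21 row 2 was -0.39 ± 0.28 from sham livers of day 7 (adjusted p = 0.387). Which stretch of the gene each row reads was not looked up here.

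Tested row by row, 10 of the 16 member rows that passed the filter were higher in BDL livers of day 21 than of day 7, against 0.455% of all rows. Some of these 10 rows passed the filter only with their BDL arrays of day 21, and such rows were bound to differ. No count over all 32 member rows without the filter is given here. A further 5 rows carry several immunoglobulin symbols each, and no gene is named from them. All 5 were higher at day 21 than at day 7 of ligation, by 0.63 to 2.12, and higher than in sham livers of day 7, by 0.55 to 1.67, where 11.3% of all rows were called higher. None of the 5 was called between BDL and sham livers at day 1, 3 or 7. Of all rows, 5.33%, 3.57% and 8.84% were called higher on these days, and 3.03%, 2.15% and 3.87% lower. The brightest of them, with kappa symbols only, averaged 10.7 ± 0.40 in BDL livers at day 21, 8.57 ± 0.58 in BDL livers at day 7 and 9.03 ± 1.15 in sham livers at day 7 (SD). In BDL livers it averaged 6.70 at day 1 and 7.47 at day 3. All its BDL arrays of day 7 lay above those of day 3, without passing (1.105 ± 0.375, SE, adjusted p = 0.112 by limma).

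**Figure D4:**
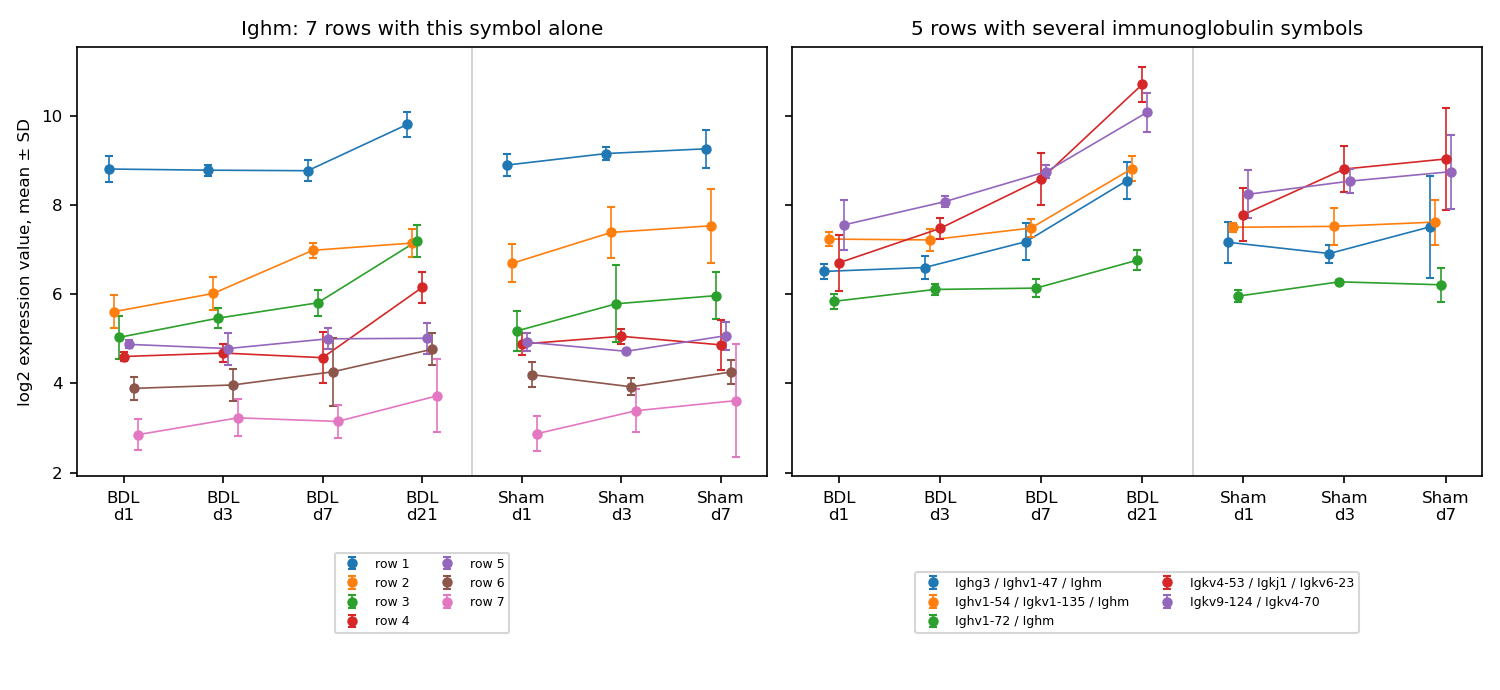
Mean log2 value with SD per group for the 7 rows of Ighm alone (left) and the 5 rows with several immunoglobulin symbols (right), for BDL days 1, 3, 7 and 21, then sham days 1, 3 and 7. Rows 1, 3 and 4 of Ighm and all 5 rows on the right step up between BDL day 7 and BDL day 21, while rows 2 and 5 of Ighm do not pass there.

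Other genes were read from 9 lists: markers of B cells, plasma cells, T cells, leukocytes in general, lymphoid stroma, hepatocytes and erythroid cells, genes of antibody formation, and antibody receptors and transporters. Of 92 tested genes in these lists, 0 were called in either direction between BDL day 21 and BDL day 7 (limma), 11 had an unadjusted p under 0.05 upward and 3 downward, and the lowest adjusted p was 0.126. Over all tested genes 0.401% were called higher and 0.463% lower there. For B cell markers, 0 of 11 tested genes were called and the median was 0.01, and for plasma cell genes 0 of 13 with a median of 0.06, beside 0.001 over all genes tested.

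Several genes that define the B cell lineage lay under the filter level. The B cell marker Ms4a1, which encodes CD20, averaged 3.40 in BDL livers at day 21, 3.35 in BDL livers at day 7 and 3.81 in sham livers at day 7, and Cr2, a complement receptor of B cells, 3.79, 3.80 and 4.19 in the same order. Tnfrsf17, the plasma cell receptor BCMA, averaged 3.79, 3.71 and 4.01, and the B lineage regulator Pou2af1 4.56, 4.45 and 4.63. Mzb1, a chaperone of antibody assembly, was measured at 5.31 in BDL livers at day 21, 5.16 in BDL livers at day 7 and 5.34 in sham livers at day 7, and did not pass in either comparison (adjusted p = 0.895 and 0.878 by limma).

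Against sham livers of day 7, B cell markers went both ways in BDL livers of day 21. In this comparison 17.3% of all tested genes were called higher and 7.9% lower. Of 11 tested B cell markers, 2 were higher (Ly6d by 2.86 and Cd37 by 0.58) and 2 lower (Cd79a by -0.73 and Fcmr by -0.38), with adjusted p by limma of 1.65e-06, 0.0048, 0.00262 and 0.0222. Ly6d is also made by epithelial cells, Cd37 is shared by other leukocytes, Cd79a encodes a signalling chain of the B cell receptor and Fcmr the IgM receptor. Cd79a averaged 4.48 in BDL livers at day 21 and 5.21 in sham livers at day 7, with no overlap of arrays. At day 7 itself 2 B cell markers were higher and 3 lower in BDL livers, where 14.2% of tested genes were called higher and 4.97% lower.

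Of 13 tested plasma cell genes, 4 were higher in BDL livers of day 21 than in sham livers of day 7 and none was lower. Over all tested genes 17.3% were called higher and 7.9% lower there. The 4 higher genes were Slamf7 (1.46 ± 0.18, adjusted p = 3.03e-07 by limma), Ly6c2 (1.14 ± 0.38, 0.0246), Sdc1 (0.99 ± 0.13, 9.85e-07) and Edem2 (0.57). Slamf7 is also found on other leukocytes, Ly6c2 on monocytes, and Sdc1, which encodes syndecan-1, is a main proteoglycan of hepatocytes. Slamf7, Sdc1 and Edem2 were also called higher in BDL than in sham livers at day 7, by 0.95, 0.92 and 0.58. For Ly6c2 the difference at day 7 was 1.03 ± 0.38 and was not called (adjusted p = 0.0544 by limma). Xbp1, a regulator of the secretory apparatus of plasma cells that hepatocytes express as well, was 0.16 ± 0.19 higher at day 21 (adjusted p = 0.598).

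Among receptors and carriers of antibodies, many were higher already at day 7. Of 19 tested, 9 were called higher in BDL than in sham livers at day 7, where 14.2% of tested genes were. In BDL livers of day 21, 9 were higher and 1 lower than in sham livers of day 7, where 17.3% and 7.9% of tested genes were. Fcgr4, an activating IgG receptor of myeloid cells, was 1.71 ± 0.25 higher at day 7 and 2.21 ± 0.25 higher at day 21. C1qb, a chain of complement C1q, was 1.44 and 2.06 higher, Fcer1g, the shared signalling chain of Fc receptors, 1.61 and 1.73, and Fcgr1, the high-affinity IgG receptor, 1.51 and 1.70. None of the 19 was called between BDL day 21 and BDL day 7. Fcgr2b, the inhibitory IgG receptor that liver endothelium carries, was 0.30 ± 0.17 higher at day 21 than in sham livers without passing.

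Pigr, the receptor that carries J chain-bearing polymers into bile, was lower in BDL than in sham livers at days 1 and 3. It had 11.6, 11.2, 10.8, 11.4 and 11.8 in BDL livers at day 1, against 12.1, 12.4 and 11.9 in sham livers, and fell by 0.79 on the log2 scale (adjusted p = 0.00105 by limma). At day 3 the difference was -0.78 ± 0.18 (adjusted p = 0.005). It was -0.31 ± 0.15 at day 7 and -0.05 ± 0.15 in BDL livers of day 21 against sham livers of day 7, neither of which passed (adjusted p = 0.146 and 0.842).

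No gene of the other leukocyte lists was called between day 21 and day 7 of ligation, and whether those lists differ from the members was not tested. All 10 pan-leukocyte genes were called higher in BDL livers both at day 7 and at day 21 against sham livers of day 7, with medians of 1.12 and 1.26, and 0 of 10 between day 21 and day 7 of ligation, with a median of 0.14. Over all tested genes 14.2%, 17.3% and 0.401% were called higher in these comparisons, in the same order. Of 11 tested T cell markers, 0 were higher and 3 lower at day 21 (Cd4, Zap70 and Cd5, by -0.64, -0.38 and -0.32), where 7.9% of tested genes were called lower. Cd3e was 0.22 ± 0.24 higher without passing. Cxcl13, the chemokine that draws B cells, was -0.97 ± 0.35 in BDL livers at day 21 against sham livers of day 7 (adjusted p = 0.0382 by limma), and Tnfsf13b, which encodes the B cell survival factor BAFF, was 0.29 ± 0.15 (adjusted p = 0.167). For Cxcl13 the arrays overlap, with sham from 6.27 to 7.82 (replicate 2) and BDL up to 6.34. Of the other genes for antibody formation and B cell support, Il4ra and Tgfb1 were 1.06 and 1.21 higher and Bcl6 was -1.28 from sham. Bcl6 had 7.23, 9.14, 6.81 and 9.12 in sham livers at day 7, against 6.27, 6.61, 7.03, 7.19 and 6.85 in BDL livers at day 21, and these overlap.

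**Figure D5:**
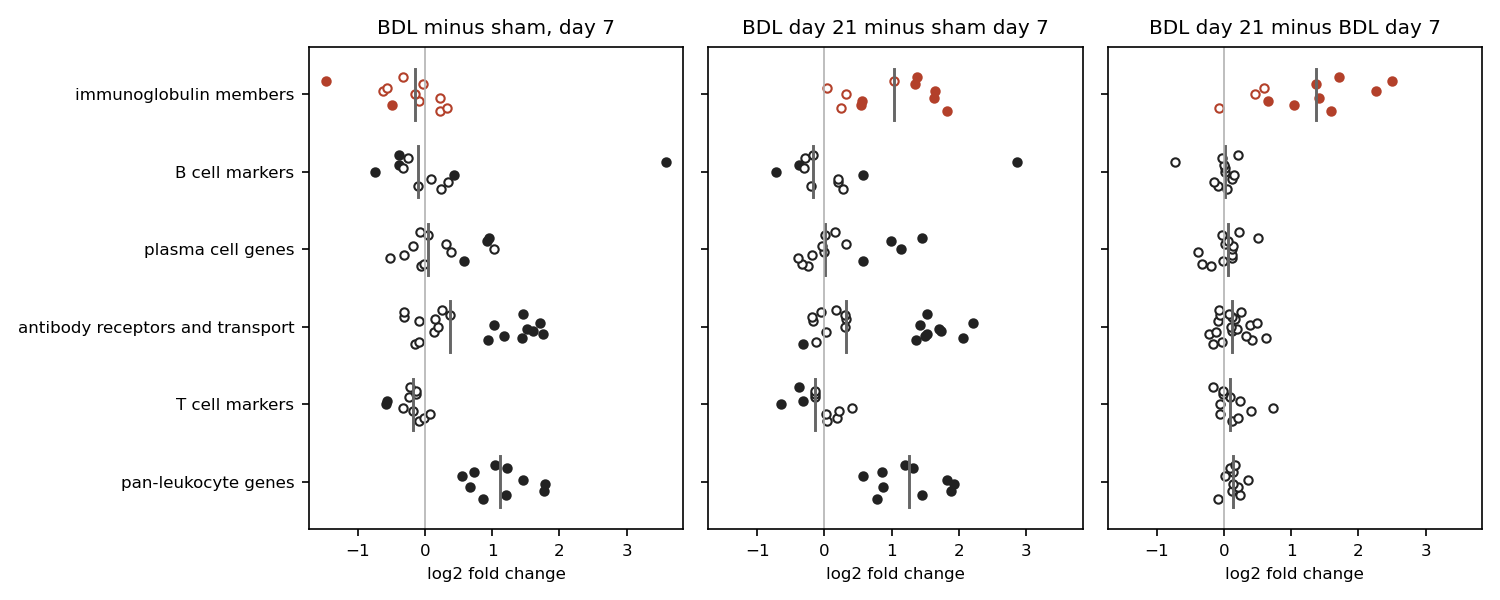
Log2 fold changes of the tested genes of the immunoglobulin members (red) and 5 gene lists, for BDL minus sham at day 7, BDL day 21 minus sham day 7 and BDL day 21 minus BDL day 7; filled circles have adjusted p under 0.05 and the vertical bar is the list's median. In the right panel 8 of 11 tested members are filled, some of which passed the filter only through BDL day 21, and 10 of 22 were called without the filter. No gene of the 5 lists is filled there, where 0.401% of tested genes were called higher. In the left panel all 10 pan-leukocyte genes are filled above 0, where 14.2% of tested genes were called higher.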

How the data were processed

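The deposited table holds log2 values. Per the submitters' processing notes, the tools were RMA and oligo 1.52.0. RMA corrects background, normalizes between arrays and summarises probes. Array medians still differed, and the sources do not give which arrays were normalized together. The array named in the labels' protocols is Mouse Genome 430 2.0, but the row identifiers match the annotation of Mouse Gene 2.0 ST, which gave the gene names. For the build, nothing was found in the sources used here. Of 41345 rows, 23521 had 1 symbol, 1814 several and 16010 none. Symbols were updated through a RefSeq table (GRCm38.p6), which held 21 of the 22 members. For genes with several rows the brightest by mean was used.

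Genes over log2 5 in at least 3 arrays (14699) were tested in limma 3.58.1 under R 4.3.3, with 1 mean per group over all 29 arrays, and two-sided p-values were adjusted by Benjamini-Hochberg. The procedure was tested on simulated data in which genes varied independently and each had the same SD in all groups. The spread of the members differed between groups, so that test does not cover their calls. Titles give each array its own animal number, so p-values measure the spread between animals, and replicate numbers are accession order and pair nothing. All groups share 1 estimate of that spread per gene, while the median SD of the members ran from 0.17 (sham day 3) to 0.44 (BDL day 21). The SE of a comparison with day 21 can thus be too small for members that spread most there. The number of arrays limits the precision. Members and lists were chosen with earlier results of these data known. Constant genes and Jchain are named whatever their result, segments if among the 6 largest non-overlapping called changes of a main comparison (2 of another) or the 6 brightest, and per list the 4 largest called changes of BDL day 21 against sham day 7 plus markers named always. The other members, with Pou2af1 and Alb, were named after their values were seen. Alternatives were no filter, a filter at 6, the mean of a gene's rows, cyclic loess, trend and robust eBayes, the array set as a term or left out, only the groups compared, all 9 sham arrays, and each array left out. With an array left out, the genes tested stayed those that passed the filter over all 29 arrays. Testing each row on its own was added after seeing the data.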

Additional observations from a re-analysis of the deposited data

Results flagged for a closer look

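Of 110 sets of 4 or 5 arrays of a member, 9 had an array far from the others (8.18%), and chance flags about 1 in 20 groups. Highest in their groups were BDL day 21 replicate 4 for Ighg3 (6.02, the next 4.44), Igkv6-14 (3.92), Igkv6-23 (3.65) and Igkv9-124 (4.44), BDL day 21 replicate 2 for Igkv1-133 (7.33, the next 4.23), BDL day 21 replicate 3 for Igkv4-91 (6.72, the next 5.20) and sham day 7 replicate 2 for Igkv4-70 (3.48). Lowest in their groups were BDL day 3 replicate 1 for Ighg3 (3.92, the next 4.31) and BDL day 1 replicate 5 for Igkv4-59 (2.37). Values under 5 were not told apart from background.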

How the results depend on the processing

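No paired analysis was possible because replicate numbers are accession order and pair no samples. The members called between BDL day 21 and BDL day 7 numbered 8, 7 to 8 when an array was left out and 4 of the 5 tested with the filter at 6. Against sham day 7 they numbered 7, 6 to 8 with an array left out and 4 of 5 with the filter at 6. Between BDL day 21 and BDL day 1 they numbered 9, 9 to 9 with an array left out and 5 of 5 with the filter at 6. Fewer members are tested at 6. For BDL against sham, the count at day 1 (0) was 3 against all 9 sham arrays. The count at day 3 (1) was 0 against all 9 sham arrays, with the mean of rows or with no filter, 2 with only the groups compared, and 0 to 1 with an array left out. The count at day 7 (2) was 0 against all 9 sham arrays or with only the groups compared, 1 with cyclic loess, the filter at 6, the mean of rows or no filter, and 0 to 2 with an array left out. Between days 3 and 1 of ligation it was 1 with only the groups compared, between days 7 and 3 it was 1 with that, with a term for the array set or the filter at 6 and 0 to 1 with an array left out, and between sham days 1 and 7 it was 0 to 1. Signs turned only for uncalled values. For BDL against sham at day 1, Ighg3 lay between -0.095 and 0.695 and Ighm between -0.212 and 0.033 with an array left out, and Ighm was 0.037 with a term for the array set. Ighg3 at BDL day 21 against sham day 7 was -0.047 against all 9 sham arrays and -0.118 to 0.592 with an array left out. Ighg3 at BDL day 21 against BDL day 7 was -0.442 to 0.075 with an array left out. Of the values of named members under alternatives, 584 kept their direction and side of the threshold, 34 lost a call, 3 gained it and 9 turned sign. The causes were not tested except where fewer genes or arrays entered. Members under 5 have sizes that depend on background, the sham group of day 3 has 2 arrays, and no sham of day 21 was analysed here.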
